A study of Mus musculus with 12 samples.

Results

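Genes for histone modifying enzymes were read in mouse PGCLCs (primordial germ cell-like cells), which are grown from embryonic stem cells and resemble the founders of eggs and sperm. Members were chosen by gene name: the Kdm, Kmt, Setd, Ehmt, Suv39, Suv420, Prmt, Ezh, Hdac, Sirt and Kat families, together with Eed, Suz12, Dot1l, Nsd1 and Ep300. These names matched 77 of the 12955 genes in the table. Of these, 74 reached 1 FPKM (fragments per kilobase, scaled to the depth of the library, so that levels can be compared between genes) in at least 2 of 12 libraries, as did 12059 of all genes. The other 3, Setd1b, Setd7 and Kdm4d, were below 1 FPKM in every library, with highest values of 0.955, 0.729 and 0.317 FPKM. Just inside that limit, Hdac11 reached 1.32 and 1.09 FPKM in 2 libraries and stayed below 1 in the other libraries. Prmt8, Kdm7a and Hdac7 reached 1 FPKM in the 4 day 6 libraries alone and Hdac11 in the 2 day 6 OE libraries alone, so each of them passed through the groups where it was high.

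The 12 libraries formed 6 groups of 2: OE at day 6, EV at day 6, OE at day 2, EV at day 2, dTAG13 at day 2 and DMSO at day 2. The starting stem cells were of the J1 strain and male, and PGCLCs were taken from embryoid bodies of day 2 or day 6 by a sort for CD61 and SSEA1. Itgb3, the gene of the sort marker CD61, read 0 to 4.39 FPKM over the libraries. The study concerns Tex10, a nuclear protein known from ribosome maturation and pluripotency; EV and OE are abbreviations that the labels do not spell out. dTAG13, a degrader of proteins that carry a matching tag, or the solvent DMSO was given for 2 days; protein levels were not part of these data. The tagged protein, the promoter of any construct and the number of clones are not given in the sources used here. Nothing in them says whether the 2 libraries of a group came from separate cultures, so p-values measure the spread between libraries, which may be technical.

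The Tex10 transcript was read first as a check of the labels. It stood at 259 and 269 FPKM in day 6 OE against 65.7 and 81.5 in day 6 EV, and at 403 and 378 in day 2 OE against 119 and 145 in day 2 EV. It stood at 45.2 and 36.5 FPKM with dTAG13 against 61.7 and 56.8 with DMSO. The groups did not overlap in any of these 3 pairs, and the differences of log2(FPKM + 1) were 1.84 (SE 0.15, adjusted p = 0.000862), 1.57 (SE 0.15, adjusted p = 0.0028) and -0.53 (SE 0.15, adjusted p = 0.0425). The summed FPKM of a library lay between 550230 and 673435. Replicate 1 of dTAG13 listed 2008 genes (15.5%) at 0, against 18 to 127 in the other libraries. In that library 5 members were listed at 0 (Hdac7, Hdac11, Kdm7a, Kdm8 and Prmt8), and no member was at 0 elsewhere. The median SD between the 2 libraries of a group, on the log2 scale and over members, was 0.313 for dTAG13 and 0.0522 to 0.122 for the other groups. All 11 listed PGCLC genes were in the table, and their sum lay between 1050 and 1604 FPKM, with Pou5f1, Nanog and Tfap2c leading. Of the other lineage lists, the sums for neural ectoderm and for fibroblasts stayed at or below 2.15 and 0.834 FPKM. In libraries from whole cell populations, fewer cells of a type and less RNA per cell cannot be told apart.

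Histone enzymes are known as writers, which add methyl or acetyl groups to histone tails, and erasers, which remove them. Methylation of H3K4 marks promoters and enhancers, that of H3K9 and H3K27 marks silent chromatin, and acetylation marks open chromatin. When germ cell precursors form in the mouse embryo, dimethylation of H3K9 falls and trimethylation of H3K27, laid down by Polycomb repressive complex 2 (PRC2), rises across the genome. The arginine methyltransferase Prmt5 and the H3K9 enzymes Ehmt2 and Setdb1 are known for roles in these cells.

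Most members were well expressed. The median member averaged 13.6 FPKM over the 12 libraries, against 10.5 FPKM for all genes tested. An average of 10 FPKM or more was reached by 46 of 74 members (62.2%), against 50.9% of all genes tested, and 17 members averaged below 5. The 5 members above 100 FPKM were Prmt1 (243), the main arginine methyltransferase, the deacetylase Hdac1 (239), the PRC2 subunit Eed (166), Prmt7 (155) and Prmt5 (109). Between the highest and the lowest group mean, the median member differed 1.86-fold and 32 members differed by 2-fold or more. The same was not computed for all genes tested. With 2 libraries a group, such a ratio also takes in the spread between libraries, and the dTAG13 group is among those compared. Members lay on 20 chromosomes.

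Levels differed between enzyme classes. The 6 H3K4 methyltransferases were low, with means between 1.29 FPKM (Setd1a, the core of a COMPASS complex) and 3.72 FPKM (Kmt2c, an enhancer enzyme). The 6 H3K9 methyltransferases ran from Suv39h2 (5.63), which acts at pericentromeric heterochromatin, to Setdb1 (43.2), which silences retroelements. PRC2 ran from its scaffold Suz12 (10.8 FPKM) to Eed. Nsd1 (11.6) and Setd2 (16.1), which methylate H3K36, were close to each other, and Dot1l, the H3K79 enzyme, averaged 5.71 FPKM. Among H4K20 enzymes Suv420h1 (14.6) was lowest and Suv420h2 (65.4) highest, both of them acting on H4K20 in heterochromatin. Setd5 (7.26) and Setd6 (64.05) bounded the remaining SET domain genes, whose known substrates are partly other proteins. Prmt8, a membrane-bound arginine methyltransferase, averaged 0.6996 FPKM, far below Prmt1.

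Among the erasers, the H3K4 demethylases ran from Kdm1b (5.64 FPKM) to Kdm5b (99.1), the H3K9 and H3K36 demethylases from Kdm7a (0.724) to Kdm4c (31.9), and the H3K27 demethylases were Kdm6b (1.13) and Kdm6a (12.7). The acetyltransferases ran from Kat6a (2.48) to Kat2a (67.8), the catalytic part of SAGA. Class I, II and IV deacetylases ran from Hdac11 (0.654) to Hdac1. The sirtuins, which need NAD, ran from Sirt1 (4.44) to Sirt3 (27.7); Sirt3, Sirt4 and Sirt5 are known as mitochondrial enzymes that act mainly on other proteins.

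**Figure D1:**
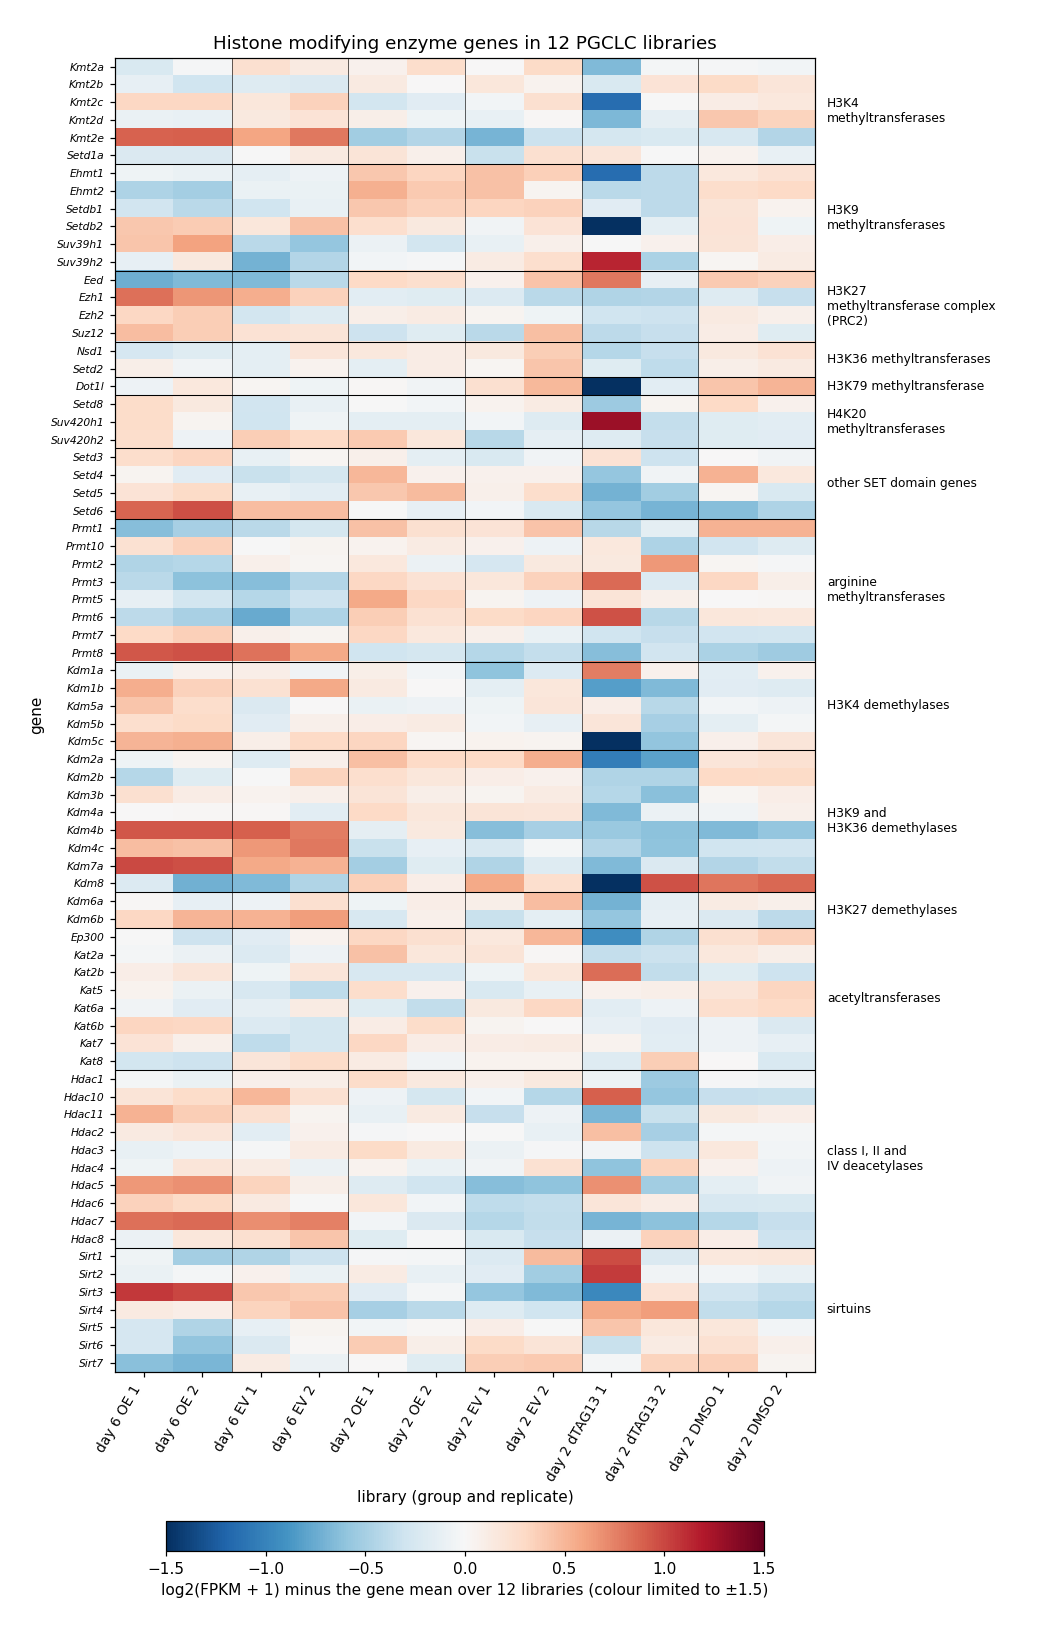
Heatmap of the 74 enzyme genes (rows, grouped by class) in the 12 libraries (columns, by group and replicate); colour gives log2(FPKM + 1) minus the gene's mean over the 12 libraries, limited to 1.5 in either direction. Red marks libraries above that mean and blue those below it; the darkest cells gather in replicate 1 of dTAG13, and Kmt2e, Kdm4b, Kdm7a, Prmt8 and Hdac7 are red in all 4 day 6 libraries.

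The first comparison asked which enzyme genes differed in OE from EV at day 6. Ezh2, the main catalytic subunit of PRC2, and Suv39h1, an H3K9 trimethylase, were higher in OE, and no member was lower. That is 2 of 74 members, while 3.72% of all genes tested (1.92% higher) passed the same threshold, an adjusted p (limma, Benjamini-Hochberg over all genes) below 0.05. The median member stood at 0.08 on the log2 scale and the median gene at 0.05.

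Ezh2 had 56.4 and 58.9 FPKM in day 6 OE and 37.2 and 39.6 FPKM in day 6 EV. The groups did not overlap, and Ezh2 rose by 0.57 (SE 0.10, adjusted p = 0.0189) on the log2 scale. Suv39h1 had 15.8 and 18.1 FPKM in day 6 OE and 8.49 and 7.38 FPKM in day 6 EV, again without overlap. It rose by 1.01 (SE 0.17, adjusted p = 0.0139). Both genes were called from these same libraries, which favours such a separation, so it adds no support. The share of all genes without overlap was not computed. Neither call held with fewer libraries: with any 1 of the 4 day 6 libraries left out, 0 members passed (limma), against 0.15% to 0.576% of all genes. Ezh2 then stood at 0.53 to 0.62 (adjusted p 0.124 to 0.189) and Suv39h1 at 0.91 to 1.10 (0.0751 to 0.162), a lone library being taken to vary like those of the other groups; over all 12 alternatives run, the adjusted p ran from 0.000144 to 0.189 and from 3.12e-05 to 0.162. Leaving out replicate 1 of dTAG13, which belongs to neither group but enters the shared spread, left 17 of 74 members past the threshold (12 higher, 5 lower), against 25.4% of all genes (14.4% higher, 11% lower). Quantile normalization gave 3 members higher and 2 lower, while 1048 of all genes passed, against 448 in the main fit.

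The promoters of these genes are shown because they are the members that rose with OE at day 6. Each is the RefSeq window from 250 bases before to 50 bases after an annotated start (GRCm38.p6), printed 5′ to 3′ along the gene's own strand, which is the minus strand for all 3 windows. Capitals mark matches, on either strand, to an E2F-type site (TTTNNCGC) or a CCAAT box (CCAAT). The Ezh2 window covers chr6:47594981-47595280 and holds 1 E2F-type match, from base 4 after the start, and 3 CCAAT boxes. Suv39h1 has 2 annotated starts, whose windows cover chrX:8074711-8075010 and chrX:8074312-8074611.
Ezh2: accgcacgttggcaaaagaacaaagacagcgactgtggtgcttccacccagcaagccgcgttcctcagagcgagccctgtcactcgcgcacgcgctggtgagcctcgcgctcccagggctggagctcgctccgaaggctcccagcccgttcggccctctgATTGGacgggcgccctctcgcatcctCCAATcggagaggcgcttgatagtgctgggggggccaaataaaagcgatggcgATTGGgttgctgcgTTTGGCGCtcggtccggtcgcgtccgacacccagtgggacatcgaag
Suv39h1, window 1: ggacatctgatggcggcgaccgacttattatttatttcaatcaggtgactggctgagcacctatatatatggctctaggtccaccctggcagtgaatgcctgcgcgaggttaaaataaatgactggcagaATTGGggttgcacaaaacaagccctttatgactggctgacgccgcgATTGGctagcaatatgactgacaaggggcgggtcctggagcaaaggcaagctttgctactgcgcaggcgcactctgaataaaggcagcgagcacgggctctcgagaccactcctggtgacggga
Suv39h1, window 2: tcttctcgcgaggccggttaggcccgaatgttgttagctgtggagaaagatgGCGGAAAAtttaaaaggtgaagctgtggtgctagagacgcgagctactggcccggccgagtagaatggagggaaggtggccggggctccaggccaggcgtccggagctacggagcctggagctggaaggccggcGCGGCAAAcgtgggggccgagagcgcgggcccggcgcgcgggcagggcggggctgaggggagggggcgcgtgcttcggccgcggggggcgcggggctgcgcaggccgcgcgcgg

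The first Suv39h1 window held 2 CCAAT boxes and no E2F-type match, and the second held 2 E2F-type matches and no CCAAT box. Such matches were also found in windows of other genes. An E2F-type match was in 8 of the 82 windows of members (9.76%), covering 62 genes outside chromosome 18, in 8.58% of the 12294 windows of genes tested and in 5.17% of all 32851 windows. CCAAT was in 43.9%, 38.4% and 37.4% of these 3 sets, and the GC box GGGCGG in 65.9%, 63.2% and 35.7%. The CHR element TTTGAA was in 13.4%, 11.8% and 17.9%. Member windows had a median of 23.5 CG pairs, against 20 for genes tested and 7 for all windows.

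Other members stood apart at day 6 without passing the threshold. Suv39h2, the second H3K9 enzyme of that family, had 4.76 and 5.97 FPKM in day 6 OE and 2.86 and 3.64 in day 6 EV, a difference of 0.58 (SE 0.41, adjusted p = 0.521). Sirt3 stood at 0.64, at 53.6 and 51.6 FPKM in OE and 33.7 and 32.9 in EV. Neither pair of groups overlapped, but both genes were picked for the size of their difference, which favours this. The largest differences below 0 were those of Sirt7 (-0.67), a nuclear sirtuin of the nucleolus, Kat8 (-0.52), which acetylates H4K16, Prmt2 (-0.50) and Kdm2b (-0.47), which brings a Polycomb complex to CpG islands. Their adjusted p-values were 0.0856, 0.147, 0.234 and 0.135; without replicate 1 of dTAG13 all 6 of these members passed. Pecam1, which is nearly all of the endothelial list (3 of 6 genes in the table), moved with OE at day 6: that list summed to 109.7 to 113 FPKM in OE and 64.4 to 74.1 FPKM in EV, while Kdr averaged below 1 FPKM. Its part in these results was not tested.

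At day 2, OE and EV were compared in the same way, and 0 of 74 members passed the threshold (limma), against 0.846% of all genes; 8 members (10.8%) had an unadjusted p below 0.05, against 12.3% of all genes. The largest differences above 0 were Kdm4b (0.57), Suv420h2 (0.55), Sirt3 (0.52) and Prmt5 (0.45). Kdm4b, a demethylase of H3K9 and H3K36, had 13.98 and 17.2 FPKM in day 2 OE and 9.56 and 10.7 in day 2 EV. Suv420h2 had 84.7 and 72.4 FPKM in OE and 48.1 and 58.6 in EV, and Prmt5 159 and 134 in OE and 111 and 102 in EV. None of these 3 overlapped between groups, and the adjusted p-values were 0.143, 0.141 and 0.123. They were picked for the size of their difference, which favours groups without overlap, and the share of all genes without overlap was not computed.

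The largest differences below 0 at day 2 were Kat6a (-0.50), Sirt7 (-0.47), Dot1l (-0.38) and Kmt2c (-0.33). Kat6a, an acetyltransferase, had 2.03 and 1.68 FPKM in day 2 OE and 2.82 and 3.28 in day 2 EV (adjusted p = 0.314). It lies on chromosome 8 (22859442 to 22943259, mm10), where the median over the 8 nearest genes tested was -0.42 for OE at day 2 and -0.51 for OE at day 6; at day 6 Kat6a itself stood at -0.10. What these neighbours share with Kat6a was not tested. Sirt7 had 12.7 and 11.1 FPKM in OE and 16.8 and 16.9 in EV. Without replicate 1 of dTAG13, 7 of 74 members passed at day 2 (Kdm4b, Suv420h2, Sirt3, Prmt5 and Hdac6 higher, Kat6a and Sirt7 lower), against 14.1% of all genes (8.04% higher, 6.02% lower).

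The OE effects of the 2 days were then set against each other. For 0 of 74 members did the effect differ between days (limma, adjusted p below 0.05), against 0.232% of all genes (0.0663% above 0); 7 members (9.46%) had an unadjusted p below 0.05, against 10.8% of all genes. Across the 74 members the 2 effects, which come from separate libraries, had a Pearson r of 0.15, against 0.27 across all genes tested. The largest difference was that of Suv39h1, at 1.17 (SE 0.24, adjusted p = 0.0958). At day 2 it had 10.8 and 9.38 FPKM in OE and 10.6 and 12.3 in EV, which overlapped. Suv39h2 followed at 0.79 (adjusted p = 0.717), with 5.11 and 5.24 FPKM in OE and 5.83 and 6.48 in EV at day 2, where OE was the lower group. Kdm5a stood at 0.59 and Setd8, the H4K20 monomethylase, at 0.53.

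On the other side, Suv420h2 stood at -0.80 (SE 0.21, adjusted p = 0.164), with OE above EV at day 2, and with 76.99 and 60.9 FPKM in OE and 83.5 and 79.5 in EV at day 6. Ehmt2 stood at -0.61, Kdm2b at -0.60 and Prmt2 at -0.58. Under quantile normalization Suv39h1 passed, with an adjusted p of 0.0427. Without replicate 1 of dTAG13, 5 members did (Ezh2, Suv39h1 and Suv39h2 above 0, Ehmt2 and Suv420h2 below 0), against 11.1% of all genes (5.57% above 0, 5.56% below 0).

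**Figure D2:**
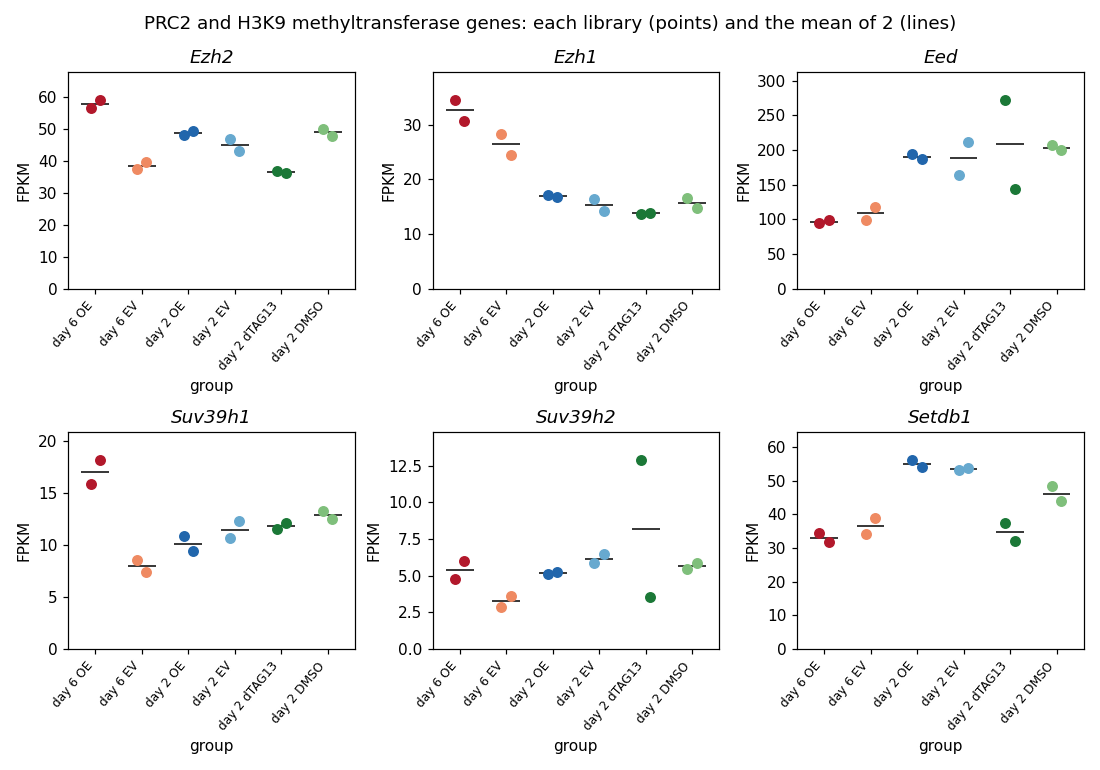
FPKM (vertical axes, starting at 0) of Ezh2, Ezh1, Eed, Suv39h1, Suv39h2 and Setdb1 in the 6 groups (horizontal axes); points are the 2 libraries of a group and lines their mean. Ezh2 and Suv39h1 are higher in day 6 OE than in day 6 EV, Ezh1 is higher and Eed and Setdb1 are lower in both day 6 groups than in day 2 OE and day 2 EV, and the dTAG13 libraries lie far apart for Eed and Suv39h2.

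Treatment with dTAG13 for 2 days was compared with DMSO. Enzymes of several silencing and activating classes were lower with dTAG13, among them the H3K9 pair Ehmt1 and Ehmt2, Ezh2, Dot1l, the demethylases Kdm2a, Kdm2b, Kdm3b and Kdm5c, the acetyltransferases Ep300 and Kat2a, Kmt2d and Prmt1. Sirt4 was higher. In all, 13 of 74 members passed (1 higher, 12 lower; 17.6%), against 12.2% of all genes tested (4.01% higher, 8.21% lower). The median member stood at -0.12 and the median gene at -0.13. These p-values use the spread shared by all 6 groups: with the dTAG13 and DMSO libraries alone in the fit, 0 members and 0 genes passed (limma). In the fit of 6 groups 23 members (31.1%) had an unadjusted p below 0.05, against 31.5% of all genes.

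Among the H3K9 methyltransferases, Ehmt1 had 11.4 and 19.7 FPKM with dTAG13 and 29.4 and 30.8 with DMSO, and Ehmt2, its partner in H3K9 dimethylation, 15.8 and 16.01 with dTAG13 and 25.8 and 26.3 with DMSO. They fell by 0.96 (SE 0.20, adjusted p = 0.0181) and 0.68 (SE 0.15, adjusted p = 0.0224). Ezh2 had 36.7 and 36.2 FPKM with dTAG13 and 49.9 and 47.7 with DMSO, and fell by 0.41 (SE 0.10, adjusted p = 0.0333). In these 3 genes both dTAG13 libraries were below both DMSO libraries, and those of Ehmt2 and Ezh2 lay close together. Ezh2 was the one member called both here and for OE at day 6, and the 2 comparisons share no library. Of all genes, 116 were called in both, which is 25.9% of the 448 called for OE at day 6 and 7.88% of the 1473 called with dTAG13, and 44 of the 116 had the same sign.

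Dot1l had 1.27 and 4.705 FPKM with dTAG13 and 7.51 and 8.07 with DMSO, a fall by 1.29 (SE 0.35, adjusted p = 0.0427). Kmt2d, an enhancer H3K4 methyltransferase, had 0.877 and 1.73 with dTAG13 and 2.97 and 2.79 with DMSO, and fell by 0.78 (SE 0.21, adjusted p = 0.0434). Prmt1 had 175 and 211 FPKM with dTAG13 and 335 and 336 with DMSO, and fell by 0.80 (SE 0.13, adjusted p = 0.00515). The groups did not overlap, and the 2 dTAG13 libraries of Dot1l differed by 1.33 on the log2 scale, more than the fitted fall. The 8 genes nearest to Prmt1 and to Kmt2d had medians of -0.50 and -0.45 in this comparison, as against -0.38 around Ezh2; the part of the neighbours in these falls was not tested.

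Of the demethylases, Kdm2a, which acts on H3K36, had 2.97 and 3.69 FPKM with dTAG13 and 8.24 and 8.53 with DMSO, and its relative Kdm2b 14.7 and 14.7 with dTAG13 and 25.6 and 25.3 with DMSO. They fell by 1.12 (SE 0.20, adjusted p = 0.00797) and 0.75 (SE 0.15, adjusted p = 0.0157). Kdm3b, an H3K9 demethylase, had 10.1 and 8.67 FPKM with dTAG13 and 14.2 and 15.03 with DMSO, and the X-linked H3K4 demethylase Kdm5c 2.52 and 5.902 with dTAG13 and 9.95 and 10.8 with DMSO. The falls were 0.59 (SE 0.15, adjusted p = 0.0327) and 1.21 (SE 0.28, adjusted p = 0.0248) on the log2 scale. None of the 4 overlapped between the groups.

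Ep300, a coactivator that acetylates H3K27, had 2.11 and 3.33 FPKM with dTAG13 and 5.997 and 6.55 with DMSO, and fell by 0.99 (SE 0.23, adjusted p = 0.0269). Kat2a had 51.99 and 53.5 with dTAG13 and 74.9 and 71.4 with DMSO, and fell by 0.46 (SE 0.12, adjusted p = 0.0364). Sirt4 had 16.7 and 17.5 FPKM with dTAG13 and 8.24 and 7.87 with DMSO, and rose by 1.001 (SE 0.15, adjusted p = 0.00446). It was the only member past the threshold that was higher with dTAG13, and its 2 dTAG13 libraries were close to each other. No class I, II or IV deacetylase, H3K36 methyltransferase, H4K20 methyltransferase or H3K27 demethylase passed in this fit, in which 12.2% of all genes did.

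The 2 dTAG13 libraries differed for many members. For 24 of 74 members they lay on opposite sides of the DMSO mean, and for 14 (18.9%) they differed by 1 or more on the log2 scale, as did 24.4% of all genes tested. Both lay below both DMSO libraries for 35 of 74 members, against 4185 of 12059 genes tested (34.7%). Both lay above for 6 of 74 members, against 1665 of 12059 genes (13.8%). In all 13 members that passed, both dTAG13 libraries were on the same side of both DMSO libraries. A call from these same libraries favours such a separation, so it adds no support, and its share among all called genes was not computed. For 18 members (24.3%) the difference changed sign when replicate 1 was left out, as it did for 27.7% of all genes; 0 of the 18 had passed. Kdm8 stood at -1.29, listed at 0 in replicate 1 and at 6.096 FPKM in replicate 2 of dTAG13, against 5.36 and 5.66 with DMSO, and at 0.13 without that library. Suv420h1 had 35.02 and 10.5 FPKM with dTAG13 and 12.04 and 12.2 with DMSO, Sirt2 33.1 and 14.9 with dTAG13 and 15.1 and 14.2 with DMSO, and Hdac10 8.74 and 2.51 with dTAG13 and 3.11 and 3.16 with DMSO. In each of these 3 genes replicate 1 alone was high. Setd4 stood at -0.66, and at -0.40 without that library.

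Without replicate 1 of dTAG13, 24 members passed (4 higher, 20 lower; 32.4%), against 23.3% of all genes (6.25% higher, 17% lower); the 13 named above were among them. The other members that were then lower were Eed, Setdb1, Suv39h2, Nsd1, Kdm5b, Prmt6, Hdac1 and Hdac2, and those higher were Sirt3, Kat8 and Prmt2. Hdac1 had 225 and 162 FPKM with dTAG13 and 234 and 228 with DMSO, and Eed 272 and 144 with dTAG13 and 207 and 199.7 with DMSO. The count was 43 (58.1%) without replicate 2 of dTAG13, against 60.1% of all genes, 2 (Prmt1 and Sirt4; 2.7%) without replicate 1 of DMSO, against 2.06%, and 0 without replicate 2 of DMSO, against 1.69%. Median-ratio scaling gave 2 higher and 7 lower, without Dot1l, Ehmt1, Ezh2, Kat2a and Kmt2d, and quantile normalization also lost Dot1l, Ezh2 and Kmt2d. Of all genes, 1307 passed under median-ratio scaling and 1434 under quantile normalization, against 1473 in the main fit. Of the trophoblast list 2 of 5 genes were in the table, and they summed to 10.6 to 12.5 FPKM with dTAG13 and 4.04 to 5.63 FPKM with DMSO, most of it Hand1. Their part in these results was not tested.

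**Figure D3:**
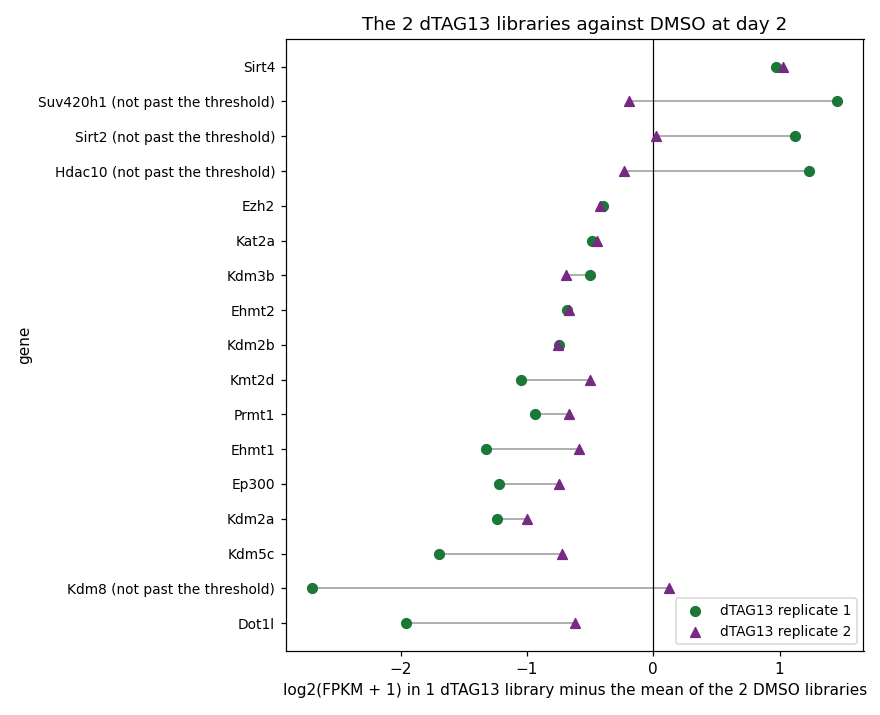
Each dTAG13 library minus the mean of the 2 DMSO libraries, in log2(FPKM + 1) (horizontal axis), for the 13 members past the threshold and 4 others, Kdm8, Suv420h1, Sirt2 and Hdac10, which were among the 4 largest differences of their direction (vertical axis); circles are replicate 1 and triangles replicate 2. Both marks of every member past the threshold lie on 1 side of 0, while Kdm8, Suv420h1 and Hdac10 have marks on either side.

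Day 6 was compared with day 2, within OE and within EV. Demethylases of H3K9 and H3K36 (Kdm4b, Kdm4c, Kdm7a), Ezh1, Kmt2e, Prmt8, Setd6, Hdac7, Sirt3 and Sirt4 were higher at day 6 in both, and Eed, Setdb1, Prmt1 and Prmt5 were lower in both. In OE, 21 of 74 members passed (12 higher, 9 lower; 28.4%), against 32.3% of all genes (17.5% higher, 14.7% lower). In EV, 18 passed (13 higher, 5 lower; 24.3%), against 23.7% of all genes (13.3% higher, 10.5% lower), so the shares of members were near those of all genes. The 14 members named above passed in both and all had the same direction. They are 66.7% of the OE calls and 77.8% of the EV calls. For all genes the 2135 shared calls were 54.9% of the OE calls and 74.6% of the EV calls. Across the 74 members the 2 differences, from separate libraries, had a Pearson r of 0.79, against 0.80 across all genes tested. Hdac7, Kdm7a and Prmt8, which are among the 14, and Hdac11 reached 1 FPKM in day 6 libraries alone. The filter thus favoured their shared rise, and these shares and the r were not computed without them. A day change that differs between OE and EV is the same contrast as the difference of OE effects above, for which 0 members passed, so a call in OE or EV alone is not shown to differ between them.

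The H3K9 and H3K36 demethylases held the largest rise in EV. Kdm4b had 30.4 and 30.4 FPKM in day 6 OE and 13.98 and 17.2 in day 2 OE, and 29.7 and 27.1 in day 6 EV and 9.56 and 10.7 in day 2 EV. It rose by 0.93 (SE 0.15, adjusted p = 0.00165) in OE and 1.40 (SE 0.15, adjusted p = 0.000349) in EV. Kdm4c had 42.3 and 41.6 FPKM in day 6 OE and 23.9 and 27.9 in day 2 OE, and 48.2 and 53.1 in day 6 EV and 25.5 and 29.6 in day 2 EV, with rises of 0.68 and 0.86. Their relative Kdm4a had 5.995 and 6.06 FPKM in day 6 OE and 7.58 and 6.85 in day 2 OE, and 6.08 and 5.29 in day 6 EV and 7.02 and 6.96 in day 2 EV, and did not pass in either. Kdm7a, which acts on H3K9 and H3K27, had 2.14 and 2.09 FPKM in day 6 OE and 0.116 and 0.402 in day 2 OE, and 1.35 and 1.27 in day 6 EV and 0.163 and 0.384 in day 2 EV. It rose by 1.32 in OE and 0.87 in EV. Kdm6b, an H3K27 demethylase, passed in EV alone, with 1.94 and 2.18 FPKM at day 6 and 0.629 and 0.858 at day 2; in OE it had 1.54 and 1.91 at day 6 and 0.738 and 1.16 at day 2.

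PRC2 subunits moved in different directions. Ezh1, the second catalytic subunit, had 34.6 and 30.8 FPKM in day 6 OE and 17.1 and 16.7 in day 2 OE, and 28.4 and 24.6 in day 6 EV and 16.4 and 14.2 in day 2 EV. It rose by 0.91 (SE 0.15, adjusted p = 0.00145) in OE and 0.75 (SE 0.15, adjusted p = 0.00554) in EV. Eed had 94.2 and 99.2 FPKM in day 6 OE and 194 and 187 in day 2 OE, and 98.7 and 119 in day 6 EV and 165 and 212 in day 2 EV. It fell by 0.97 (SE 0.24, adjusted p = 0.0127) and 0.78 (SE 0.24, adjusted p = 0.0417). Its OE and EV libraries of day 6 were all below those of day 2, which the calls themselves favour. Ezh2 stood at 0.24 in OE and -0.22 in EV, and passed in neither. The ratio of Ezh2 to Ezh1, both in FPKM, was 1.63 and 1.91 in day 6 OE and 1.31 and 1.61 in day 6 EV, against 2.81 and 2.95 in day 2 OE and 2.84 and 3.04 in day 2 EV. It was 2.67 and 2.61 with dTAG13 and 3.01 and 3.23 with DMSO, so all 4 day 6 libraries lay below all 8 day 2 libraries. Ezh1, by which the ratio divides, was called higher at day 6 from the OE and EV libraries. That call favours the separation, so the ratio adds no support, and ratios of other gene pairs were not computed.

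Among the other methyltransferases, Setdb1 had 34.4 and 31.7 FPKM in day 6 OE and 56.1 and 54.02 in day 2 OE, and 34.1 and 39.1 in day 6 EV and 53.2 and 53.9 in day 2 EV. It fell by 0.72 (SE 0.13, adjusted p = 0.0021) in OE and 0.54 (SE 0.13, adjusted p = 0.0125) in EV. Ehmt2 passed in OE alone, falling by 0.95 (SE 0.15, adjusted p = 0.00135) to 15.2 and 14.6 FPKM at day 6, against 31.4 and 28.3 at day 2; in EV it had 19.7 and 19.8 at day 6 and 29.3 and 22.0 at day 2, a difference of -0.35. Suv39h1 rose by 0.69 (SE 0.17, adjusted p = 0.0113) in OE, where it had 15.8 and 18.1 FPKM at day 6 and 10.8 and 9.38 at day 2. In EV it stood at -0.48, on the other side of 0, with an adjusted p of 0.068. Kmt2e, a reader of H3K4 methylation related to the Kmt2 enzymes, had 6.38 and 6.44 FPKM in day 6 OE and 1.79 and 1.96 in day 2 OE, and 5.02 and 5.903 in day 6 EV and 1.46 and 2.204 in day 2 EV. It rose by 1.37 (SE 0.21, adjusted p = 0.000922) and 1.20 (SE 0.21, adjusted p = 0.00303). None of the other 5 H3K4 methyltransferases passed, against 32.3% of all genes in OE and 23.7% in EV. Exons of Kmt2e overlap those of Srpk2 on the opposite strand, as exons of Hdac7, Kat5, Kat8, Kdm1b, Kdm2b, Prmt7, Setdb1, Sirt3 and Suv39h2 overlap those of other genes. Whether counting used strand is not given in the sources used here, so reads of such partners could not be told apart.

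Setd6, which methylates an NF-kappaB subunit, had 109.8 and 117 FPKM in day 6 OE and 59.3 and 54.4 in day 2 OE, and 82.1 and 82.01 in day 6 EV and 57.7 and 50.6 in day 2 EV. It rose by 0.98 in OE and 0.59 in EV. Suv420h2 passed in EV alone, at 83.5 and 79.5 FPKM at day 6 and 48.1 and 58.6 at day 2, a rise of 0.61 (SE 0.15, adjusted p = 0.0149), and had 76.99 and 60.9 at day 6 and 84.7 and 72.4 at day 2 in OE. The EV groups did not overlap and the OE groups did, which a call in EV alone favours.

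Of the 8 arginine methyltransferases, 2 fell and 1 rose in OE and in EV. Of all genes, 14.7% fell and 17.5% rose in OE, and 10.5% fell and 13.3% rose in EV. Prmt1 had 149 and 165 FPKM in day 6 OE and 317 and 275 in day 2 OE, and 175 and 195 in day 6 EV and 270.0 and 313 in day 2 EV. It fell by 0.91 (SE 0.13, adjusted p = 0.000602) in OE and 0.65 (SE 0.13, adjusted p = 0.00513) in EV. Prmt5 had 97.99 and 88.2 FPKM in day 6 OE and 159 and 134 in day 2 OE, and 79.1 and 86.2 in day 6 EV and 111 and 102 in day 2 EV, with falls of 0.64 and 0.36. Prmt3, which methylates a ribosomal protein, stood at -0.78 in OE (adjusted p = 0.0503) and -0.80 in EV (0.0577), and Prmt6 at -0.92 in EV, without passing. Prmt8 had 1.96 and 2.02 FPKM in day 6 OE and 0.262 and 0.291 in day 2 OE, and 1.73 and 1.303 in day 6 EV and 0.155 and 0.209 in day 2 EV, rising by 1.23 and 1.08 at a low level.

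Of the 8 acetyltransferases, 1 passed in EV and 1 in OE, against 23.7% and 32.3% of all genes. Kat7, a histone acetyltransferase of the MYST family, fell in EV alone, by 0.44 (SE 0.12, adjusted p = 0.0266), with 40.8 and 44.5 FPKM at day 6 and 58.1 and 58.4 at day 2; in OE it had 62.01 and 56.5 at day 6 and 66.9 and 57.9 at day 2. Kat2a fell in OE alone, by 0.37 (SE 0.12, adjusted p = 0.0419), with 65.4 and 63.1 FPKM at day 6 and 91.3 and 75.6 at day 2, and in EV had 57.96 and 63.5 at day 6 and 76.9 and 67.7 at day 2. Kdm2b also fell in OE alone, by 0.52 (SE 0.15, adjusted p = 0.0289), with 15.03 and 18.1 FPKM at day 6 and 24.7 and 23.3 at day 2. In EV, Kdm2b had 20.6 and 26.3 FPKM at day 6 and 22.1 and 21.6 at day 2, which overlapped.

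Of the deacetylases, Hdac7 passed in OE and in EV, Hdac5 in OE alone and Hdac6 in EV alone, all of class II. Of the 4 class I genes (Hdac1, Hdac2, Hdac3 and Hdac8), 0 passed in OE or EV, against 32.3% and 23.7% of all genes. So few genes cannot show a difference between the classes. Hdac7 reached 1 FPKM in day 6 libraries alone, so the filter favoured its rise. Hdac7 had 1.87 and 1.93 FPKM in day 6 OE and 0.578 and 0.3896 in day 2 OE, and 1.61 and 1.73 in day 6 EV and 0.203 and 0.249 in day 2 EV, rising by 0.97 and 1.12. Hdac5 rose in OE by 0.92 (SE 0.31, adjusted p = 0.0465), with 23.99 and 24.6 FPKM at day 6 and 12.9 and 11.9 at day 2, and had 18.9 and 15.8 at day 6 and 9.2 and 9.48 at day 2 in EV. Neither pair overlapped. Hdac6, known mainly as a tubulin deacetylase of the cytoplasm, rose in EV by 0.43 (SE 0.11, adjusted p = 0.0224), with 50.8 and 45.9 FPKM at day 6 and 35.3 and 35.7 at day 2, and in OE had 59.05 and 56.7 at day 6 and 52.2 and 44.8 at day 2.

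Of the 7 sirtuins, 2 rose in both OE and EV and 2 fell in OE. Of all genes, 17.5% rose and 14.7% fell in OE, and 13.3% rose and 10.5% fell in EV. The mitochondrial Sirt3 had 53.6 and 51.6 FPKM in day 6 OE and 22.3 and 24.6 in day 2 OE, and 33.7 and 32.9 in day 6 EV and 16.5 and 15.5 in day 2 EV. It rose by 1.13 (SE 0.29, adjusted p = 0.0139) and 1.01 (SE 0.29, adjusted p = 0.03). Sirt4 had 12.2 and 11.8 FPKM in day 6 OE and 7.49 and 8.06 in day 2 OE, and 14.1 and 15.1 in day 6 EV and 9.48 and 8.703 in day 2 EV, with rises of 0.57 and 0.63. The nuclear Sirt6 and Sirt7 fell in OE, by 0.66 (SE 0.20, adjusted p = 0.0312) and 0.57 (SE 0.19, adjusted p = 0.0426). Sirt6 had 14.7 and 11.5 FPKM at day 6 and 23.4 and 18.9 at day 2 in OE, and Sirt7 7.86 and 7.51 at day 6 and 12.7 and 11.1 at day 2. In EV, Sirt6 had 15.1 and 17.98 FPKM at day 6 and 21.8 and 20.4 at day 2, and Sirt7 13.9 and 11.9 at day 6 and 16.8 and 16.9 at day 2, without passing. The third mitochondrial member, Sirt5, passed in neither.

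**Figure D4:**
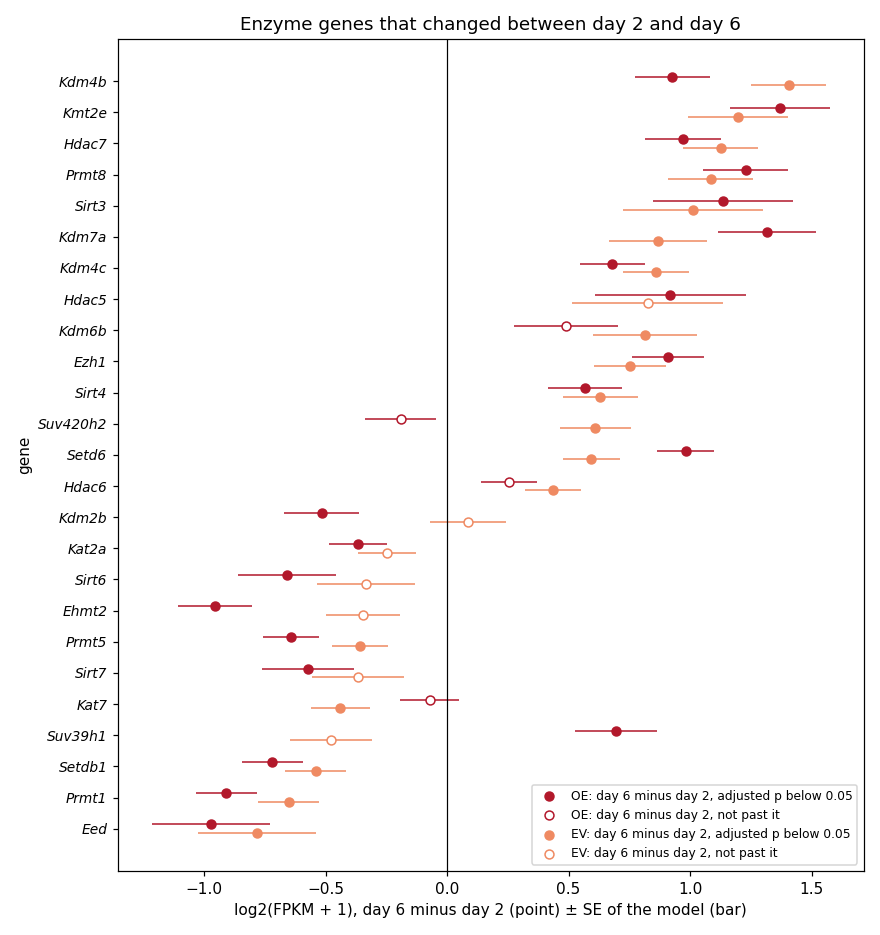
Day 6 minus day 2 in log2(FPKM + 1) (horizontal axis) for the 25 members past the threshold in OE or EV (vertical axis); points are the differences, bars the standard error of the model, dark red OE, orange EV, and open points did not pass. Most members lie on the same side of 0 in OE and EV, and Suv39h1, Suv420h2 and Kdm2b lie on opposite sides.

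These day differences were not all equally steady. Of the 21 OE calls, 12 passed under all 12 alternatives run (Ehmt2, Ezh1, Hdac7, Kdm4b, Kdm4c, Kdm7a, Kmt2e, Prmt1, Prmt5, Prmt8, Setd6 and Setdb1), and of the 18 EV calls 5 did (Hdac7, Kdm4b, Kdm4c, Kmt2e and Prmt8). Hdac7, Kdm7a and Prmt8, with Hdac11, had passed the filter on low values through day 6 libraries alone, so their rises, and the steadiness of those calls, support nothing. Over the other 70 members, 18 passed in OE (25.7%) and 15 in EV (21.4%), against 30.3% and 21.6% of the genes at 1 FPKM or more in any day 2 library. With any 1 of the 4 libraries compared left out, fewer members and fewer genes passed, in OE and in EV. The median member then stood at -0.01 to 0.05 in OE and at -0.10 to 0.02 in EV. Without replicate 1 of dTAG13 the counts were 44 in OE (59.5%) and 33 in EV (44.6%), against 59% and 52.2% of all genes. Quantile normalization gave 15 higher and 18 lower members in OE and 12 higher and 10 lower in EV. Of all genes, 4286 then passed in OE and 3361 in EV, against 3890 and 2863 in the main fit. Eed, Kdm6b, Kdm7a and Prmt5 in EV and Kat2a and Sirt4 in OE did not pass under quantile normalization. Lists of other cell types moved with the day. Endoderm genes (2 of 6 in the table) summed to 4.68 to 6.39 FPKM in day 6 OE and 0.761 to 1.23 in day 2 OE, and to 4.19 to 4.69 in day 6 EV and 1.07 to 1.08 in day 2 EV. Primitive streak genes (3 of 6) summed to 5.54 to 5.61 in day 6 OE and 2.37 to 3.36 in day 2 OE, and to 5.23 to 5.91 in day 6 EV and 2.19 to 2.69 in day 2 EV. The endothelial and blood list (3 of 6) summed to 109.7 to 113 in day 6 OE and 34.5 to 38.5 in day 2 OE, and to 64.4 to 74.1 in day 6 EV and 32.3 to 33.2 in day 2 EV. Pecam1 made up nearly all of that sum, at 112 and 108 FPKM in day 6 OE and 37.0 and 32.8 in day 2 OE. Gata1 and Kdr averaged below 1 FPKM, and Tal1, Cdh5 and Hbb-bh1 were not in the table. The neural ectoderm list (1 of 4 genes) was lower at day 6, at 0.691 to 0.796 in day 6 OE and 1.91 to 2.15 in day 2 OE, and at 1.06 to 1.37 in day 6 EV and 1.71 to 2.11 in day 2 EV. Their part in the day differences was not tested.

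The DMSO and EV groups, both of day 2, were also compared with each other. Of 74 members 0 passed (limma), against 0.39% of all genes, and 3 (4.05%) had an unadjusted p below 0.05, against 8.92%. The largest differences were Hdac5 (0.51), Kdm8 (0.42), Kat5 (0.42) and Kmt2d (0.41) above 0, and Setd6 (-0.41), Kat2b (-0.30), Prmt7 (-0.27) and Setd5 (-0.27) below 0. These members were picked for the size of their difference, which favours groups without overlap. Setd6 had 37.9 and 42.9 FPKM with DMSO and 57.7 and 50.6 in EV, and Kat5 40.8 and 44.8 with DMSO and 30.4 and 33.1 in EV. Neither overlapped, and without replicate 1 of dTAG13 both passed, with Hdac5, against 8.1% of all genes (5.37% higher, 2.72% lower). Hdac11, on chromosome 6 (91156670 to 91174692, mm10), stood at 0.33 amid 8 neighbours whose median was 0.84; it averaged below 1 FPKM. Tex10 itself stood at -1.13 (adjusted p = 0.0104) between these 2 groups.

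Genes that work with these enzymes were read from 7 lists of chromatin genes, 118 of whose 129 genes were tested. In OE at day 6, 3 (2.54%) passed upward and 2 (1.69%) downward, against 1.92% and 1.79% of all genes. Taf5l, a SAGA subunit beside Kat2a, had 58.9 and 66.7 FPKM in OE and 41.02 and 39.5 in EV (0.63, adjusted p = 0.0225), Brd3, a reader of acetylated histones, stood at 0.57 and Ncoa3, a coactivator, at 0.54. Lower were Ash2l (-0.63), a subunit shared by COMPASS complexes, and L3mbtl2 (-0.59) of a Polycomb complex. In OE at day 2 none of the 118 passed, against 0.846% of all genes (limma).

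With dTAG13, 1 of these genes (0.847%) was higher and 11 (9.32%) were lower, against 4.01% and 8.21% of all genes, and the median of the 118 stood at -0.24, against -0.13 for all genes. Phf19, which brings PRC2 to chromatin, had 0.009698 and 2.41 FPKM with dTAG13 and 5.23 and 5.51 with DMSO, and stood at -1.78, or -0.90 without replicate 1. Jarid2, another PRC2 partner, had 61.4 and 111 FPKM with dTAG13 and 163 and 161 with DMSO (-0.96, adjusted p = 0.0236). Cbx2 (-1.20) and Cbx7 (-0.62), which read H3K27 methylation, Rcor2 (-1.02) and Chd4 (-0.97) of deacetylase complexes, and Uhrf1 (-0.62), a reader of H3K9 methylation, were lower as well. Phc2 was higher, at 0.82. As for the members, both dTAG13 libraries lay on the same side of both DMSO libraries in each gene named here, which their choice by the same libraries favours.

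At day 6 against day 2, 7 of the 118 were higher (5.93%) and 21 lower (17.8%) in OE, against 17.5% and 14.7% of all genes. In EV, 5 were higher (4.24%) and 15 lower (12.7%), against 13.3% and 10.5%. Their medians were -0.17 in OE and -0.21 in EV, against 0.08 and 0.04 for all genes. Of the 14 genes of heterochromatin and readers, 7 were lower in OE (50%) and 4 in EV (28.6%), against 14.7% and 10.5% of all genes. In both, 0 were higher, against 17.5% and 13.3% of all genes. Atf7ip, a partner of Setdb1, had 17.5 and 15.5 FPKM in day 6 OE and 45.98 and 41.3 in day 2 OE, and 19.8 and 20.6 in day 6 EV and 39.3 and 38.6 in day 2 EV. It fell by 1.35 and 0.91, so Setdb1 and its partner were both lower at day 6. Trim28, which brings Setdb1 to retroelements, had 91.7 and 86.9 FPKM at day 6 and 169 and 147 at day 2 in OE (-0.81). Mbd3, of a deacetylase complex, stood at -1.09 in OE and -0.90 in EV, and Pcgf6, of a Polycomb complex of germ cell gene silencing, at -0.84 and -1.10. Cbx8, a Polycomb reader, was higher, at 1.54 in OE and 1.41 in EV, with 4.498 and 5.08 FPKM in day 6 OE and 0.892 and 1.08 in day 2 OE.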

How the data were processed

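RNA was sequenced after poly(A) selection, per the labels. Per the submitters' processing notes, the tools were FastQC 0.10.1, Trim Galore 0.6.3, cutadapt, STAR 2.7.6a and Cufflinks 2.2.1, with build mm10. The deposited table holds FPKM by the authors with an added 1, inferred from the digits of the values and subtracted here. Depth is not given in the sources used here, so precision of low values is unknown. Members follow current names for 70 genes and older names for 4 (Setd8, Suv420h1, Suv420h2 and Prmt10); 1 gene matching the names is not reported here. Exon overlaps concern 11 members.

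The 12059 genes past the filter were fitted with limma 3.58.1 (R 4.3.3) on log2(FPKM + 1), a scale that understates changes of low genes, with a trended prior variance and 6 group means (6 residual degrees of freedom, prior 3.86, or 8.05 without replicate 1 of dTAG13). P-values were adjusted over all of these (Benjamini-Hochberg). Tables and figures used Python 3.11.15, pandas 2.3.3, numpy 2.4.6 and matplotlib 3.10.9. The code was checked on simulated data.

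Named were all members past the threshold, the 4 largest differences per direction, class extremes and up to 3 changed genes per direction of each chromatin list. Members, classes and lists were chosen with earlier results of these data known. Alternatives covered the pseudocount (0.1), the filter, quantile and median-ratio scaling, a replicate block, sample weights, the groups compared alone and leaving out libraries.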

Additional observations from a re-analysis of the deposited data

How the results depend on the processing

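Counts of members past the threshold moved with the libraries in the fit and with how the spread was estimated. The counts over all genes tested moved as well. With sample quality weights the members were 22 (OE at day 6), 5 (OE at day 2) and 4 (difference of OE effects). They were 0 (dTAG13), 45 (day in OE), 30 (day in EV) and 1 (DMSO against EV). Over all genes the counts were 3897, 1020, 1275, 20, 7577, 5581 and 583 in the same order. With only the groups compared the members were 20, 6, 3, 0, 45 and 28 for the first 6 of these. Over all genes the counts were then 3495, 1382, 1194, 0, 7339 and 5244. Quantile normalization gave 5 members (3 higher, 2 lower) for OE at day 6, 33 for the day in OE and 1 for the difference. Over all genes it gave 1048, 4286 and 151. It put the median gene at -0.04, against 0.08, for the day in OE, and near 0, against -0.13, with dTAG13. Leaving out libraries gave ranges of 0 to 17 (OE at day 6), 0 to 7 (OE at day 2), 0 to 5 (difference), 0 to 43 (dTAG13), 12 to 44 (day in OE), 6 to 33 (day in EV) and 0 to 3 (DMSO against EV). With dTAG13, Kdm8 (-2.70 to 0.13), Hdac10 (-0.24 to 1.24) and Suv420h1 (-0.19 to 1.46) were among the 18 of 74 members that changed sign when replicate 1 of dTAG13 was left out. None of the 18 had passed, and without that library Hdac2, Prmt6, Sirt3 and Suv39h2 of them did. Under quantile normalization and median-ratio scaling Dot1l, Ezh2 and Kmt2d did not pass with dTAG13, and under median-ratio scaling Ehmt1 and Kat2a did not either. The causes were not tested.

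Whether replicate numbers pair the samples is not given in the sources used here. Correlations of same-numbered deviations ran from -0.135 (day 6 EV with dTAG13) to 0.252 (day 2 EV with day 6 EV). With 2 libraries a group, these cannot decide it. With a replicate block the counts were 2, 0, 0, 12, 20, 17 and 0 in the order above, and 372, 98, 21, 1349, 3777, 2741 and 39 over all genes tested. Kmt2d, Eed (EV) and Sirt7 (OE) lost their calls. With 2 libraries a group and unknown depth, a p above the threshold does not show that a member did not differ.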

Other observations

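Replicate 1 of dTAG13 stood apart in values of further members. Kat2b had 15.9 and 6.29 FPKM with dTAG13 and 7.31 and 6.58 with DMSO, and Prmt6 34.9 and 12.8 with dTAG13 and 19.8 and 19.7 with DMSO. In the other direction Setdb2 had 0.99 and 5.804 FPKM with dTAG13 and 7.703 and 6.204 with DMSO, and Kmt2c 1.07 and 3.55 with dTAG13 and 3.95 and 4.09 with DMSO. In each of these genes replicate 2 was closer to DMSO than replicate 1.

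Suz12, which is not among the changed members, had 7.71 and 14.8 FPKM in the 2 day 2 EV libraries, whose gap was wider than in any other group. Setd5 had its 2 lowest values with dTAG13, at 3.9 and 4.58 FPKM against 7.23 and 5.84 with DMSO, and did not pass. Around Suv39h2, Prmt6 and 8 other members, the 8 nearest genes had a median of at least 0.4 in size in the dTAG13 comparison; for OE at day 6 this held for Hdac5 (own value 0.46, neighbours 0.47) and Kat6a.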
